A study of Mus musculus with 16 samples.

Results

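A set of 8 Paneth cell genes, Lyz1, Ang4, Mptx1, Mptx2, Mmp7, Itln1, Defa17 and Defa24, was followed in the ileum and duodenum of mice whose intestinal epithelium had lost Neurog3. They are a list of named genes, and all 8 were present among the 55359 genes counted. Neurog3 codes for a transcription factor without which enteroendocrine cells, the hormone-releasing cells of the gut lining, do not form. All animals were male, had a C57BL/6N background, carried Neurog3f/f alleles and ate a standard diet, and tissue was taken 18 weeks after tamoxifen. Mutants (names starting with NFVCT) also carried Villin-CreERT2, a tamoxifen-activated recombinase under a promoter of the whole intestinal epithelium, and controls (names starting with NF alone) did not, so an effect of the transgene cannot be told apart from that of Neurog3 loss. The labels call the animals adult, and whether the controls, too, were given tamoxifen is not stated for each genotype. Each of 4 mutants and 4 controls gave 1 ileal and 1 duodenal library, 16 in all, and the layers of the gut wall that were taken are not stated in the labels.

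Paneth cells sit at the base of the small intestinal crypts and release granules of antimicrobial proteins into the lumen. They arise from the same stem cells as goblet, tuft and enteroendocrine cells, through a secretory precursor that depends on Atoh1, and WNT signals in the crypt base are needed for their maturation. In the mouse they are more numerous towards the ileum. Lyz1 codes for the lysozyme of these cells, Ang4 for an antimicrobial ribonuclease, Mptx1 and Mptx2 for mucosal pentraxins and Itln1 for intelectin, a lectin that binds microbial sugars. Defa17 and Defa24 code for alpha-defensins (cryptdins), small pore-forming peptides, and Mmp7 codes for matrilysin, the protease that cuts mouse pro-alpha-defensins into their active form. Goblet cells of the mouse can also express Ang4 and Itln1.

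Libraries held 8213889 to 35076714 counts. Neurog3 had 0 counts in all 8 mutant libraries, against 8 to 27 counts per library in control ileum and 12 to 37 in control duodenum. The Paneth label was checked on 6 marker genes outside the 8: Defa3, Defa21, Defa22, Defa26 and AY761184 were counted in every group, and Defa5 was at 0 in all groups but control ileum, where it had 1 count. Defa3 is not a separate check, as 88.6% of the 50-base stretches of its transcript recur in that of Defa17. Of those of Defa5, 99.7% recur in other genes' transcripts, so its count does not show whether it is expressed. Of the enteroendocrine markers, 12 of 12 tested were called lower in mutant ileum and 8 of 11 in mutant duodenum, where 0 of the 11 had a log2 fold change above 0. Levels are given below as CPM, computed on 1 TMM scale over all 16 libraries, and each test used its own scaling. Calls rest on edgeR's quasi-likelihood test with a Benjamini-Hochberg adjustment over all genes tested and a threshold of 0.05; all adjusted p-values below come from that test unless another tool is named.

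The pair of defensins and the pair of pentraxins belong to families of near copies, so their sequences are shown first. The coding sequences of Defa17 and Defa24, on mouse chromosome 8, were each 279 bases long, were 95.7% identical and differed at 12 bases. Of these, 8 fell in the last 120 bases before the stop codon, which include the mature peptide; they are shown from the GENCODE M21 transcripts with the differing bases in capitals.
Defa17: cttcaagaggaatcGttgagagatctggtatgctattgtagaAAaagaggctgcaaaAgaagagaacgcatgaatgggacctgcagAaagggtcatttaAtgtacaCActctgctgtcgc
Defa24: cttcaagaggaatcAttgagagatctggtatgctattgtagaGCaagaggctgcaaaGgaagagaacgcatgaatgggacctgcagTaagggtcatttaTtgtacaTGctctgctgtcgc
A read of 50 bases could not have been placed uniquely for much of Defa17: 92% of the 50-base stretches of its transcript recurred in another gene's transcript, mostly Defa3, and 90.6% of its 100-base stretches did. For Defa24 these shares were 28.1% and 0%. They were 16.1% and 2.06% for Lyz1, whose copy Lyz2 is the lysozyme of macrophages, and 18% and 3.31% for Mptx2. Ang4 (4.7% and 0%), Mmp7 (7.36% and 2.58%) and Itln1 (0.972% and 0%) were mostly distinct. Counts of Defa17 are therefore uncertain as those of 1 gene, and counts of Mptx1 are uncertain because of its much more abundant copy Mptx2.

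The sequence upstream of Ang4 and Mptx2 is shown because these are the genes called higher in the mutants, that of Mptx1 because it is the copy of Mptx2 with few counts, and that of Lyz1 because its level differed little. Each is the 250 bases before the start of the gene in RefSeq's annotation of GRCm38.p6, printed 5′ to 3′ on the gene's strand, with the core CTTTG of WNT-responsive TCF sites, on either strand, in capitals (CAAAG on the other strand).
Ang4 (chr14:51773591-51773840, - strand): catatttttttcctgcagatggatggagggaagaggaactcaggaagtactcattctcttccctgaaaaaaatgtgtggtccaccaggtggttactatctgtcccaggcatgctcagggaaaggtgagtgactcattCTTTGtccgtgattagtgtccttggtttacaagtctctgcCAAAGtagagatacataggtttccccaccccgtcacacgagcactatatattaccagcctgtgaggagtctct
Mptx2 (chr1:173277757-173278006, - strand): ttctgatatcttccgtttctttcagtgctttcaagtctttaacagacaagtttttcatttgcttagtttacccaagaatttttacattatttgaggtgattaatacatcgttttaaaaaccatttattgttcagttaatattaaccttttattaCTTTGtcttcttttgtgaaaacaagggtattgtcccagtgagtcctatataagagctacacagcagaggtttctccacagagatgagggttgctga
Mptx1 (chr1:174330268-174330517, + strand): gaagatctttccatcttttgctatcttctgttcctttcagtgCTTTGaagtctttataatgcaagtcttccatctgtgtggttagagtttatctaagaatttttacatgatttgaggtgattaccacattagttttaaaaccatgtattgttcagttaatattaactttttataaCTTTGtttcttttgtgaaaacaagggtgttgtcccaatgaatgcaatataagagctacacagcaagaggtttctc
Lyz1 (chr10:117292869-117293118, - strand): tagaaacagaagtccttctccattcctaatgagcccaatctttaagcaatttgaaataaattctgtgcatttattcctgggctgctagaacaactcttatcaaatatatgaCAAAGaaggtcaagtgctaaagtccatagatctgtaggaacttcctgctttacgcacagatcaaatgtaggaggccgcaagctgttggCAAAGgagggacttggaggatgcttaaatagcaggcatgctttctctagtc
The core was found 2 times before Ang4, 1 time before Mptx2, 2 times before Mptx1 and 2 times before Lyz1, and also 1 time before Itln1 and 0 times before Mmp7. Of 32851 upstream windows of the same length, 48.6% held it. The longer TCF heptamers, which start with the core and end in AA, AT, TA or TT, were found before Mptx1 only among these 6 genes (2 matches), while 14.8% of all windows hold one. Neither the STAT6 motif, TTC and GAA with 4 bases between them (5.85% of windows), nor the E-box CAGCTG (13% of windows) was found before any of the 6 on either strand. The upstream stretches of Mptx2 and Mptx1 were 74% identical and their transcripts 92%. Such matches describe letters in a window and do not show a site.

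In the ileum, Ang4 and Mptx2 rose in the mutants. Ang4, the antimicrobial ribonuclease, was 2.76-fold higher and Mptx2, the pentraxin, 1.86-fold higher, whereas lysozyme, intelectin and both defensins differed by 1.19-fold or less and did not pass. In bulk tissue, a change in the number of cells of a type cannot be told apart from a change in RNA per cell. All 8 genes were tested, 2 were called higher and none lower (edgeR; 4 had an unadjusted p under 0.05). Of all 14951 genes tested in the ileum, 1.77% were called higher and 1.51% lower, and 2356 had an unadjusted p under 0.05 (edgeR). Fitted log2 fold changes lay above 0 for all 8 genes, with a median of 0.391, beside a median of -0.00605 over all genes tested.

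Ang4 stood at 2048, 2092, 1713 and 1149 CPM in the ilea of mutants NFVCT27, NFVCT38, NFVCT153 and NFVCT190, against 705, 529, 609 and 655 CPM in those of controls NF17, NF29, NF32 and NF152. Every mutant was above every control, and NFVCT190 was the lowest mutant. The log2 fold change of Ang4 was 1.47 (SE 0.17, adjusted p = 0.000321). Leaving out each library in turn gave 1.37 to 1.62, with an adjusted p of at most 0.0033.

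Mptx2 stood at 1250, 1321, 1056 and 1233 CPM in the same mutant ilea, against 503, 869, 581 and 620 CPM in the control ilea. The 4 mutants lay close together and above the highest control, NF29. The log2 fold change of Mptx2 was 0.90 (SE 0.15, adjusted p = 0.00573), and 0.79 to 1.08 when each library was left out in turn, with an adjusted p of at most 0.0291. Ang4 and Mptx2 were the only ones of the 8 genes with every mutant above every control in the ileum, an arrangement that 5.79% of all genes tested showed.

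Mmp7, the protease that activates alpha-defensins, stood at 353, 438, 253 and 414 CPM in mutant ilea, against 235, 283, 207 and 266 CPM in control ilea. Only mutant NFVCT153 fell within the control range. Its log2 fold change of 0.53 (SE 0.15) did not pass (adjusted p = 0.0813). It passed without NFVCT153 (0.67, adjusted p = 0.0133), with DESeq2 (0.54, adjusted p = 0.0259) and with no filter on low counts (0.54, adjusted p = 0.00062).

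Lyz1 was the most abundant of the 8 in CPM, with 9024, 11530, 5918 and 10240 CPM in mutant ilea, against 10460, 8246, 7043 and 8606 CPM in control ilea. The groups overlapped fully, with the lowest and the highest library both among the mutants (log2 fold change 0.07, SE 0.18, adjusted p = 0.911), and its sign turned without control NF32 or mutant NFVCT38. The markers of macrophages, which express its copy Lyz2, summed to 255 to 344 CPM in mutant ilea and 367 to 432 CPM in control ilea. Itln1 ranged from 2571 to 3819 CPM in mutant ilea and from 1890 to 3404 CPM in control ilea (log2 fold change 0.22, SE 0.17, adjusted p = 0.595). These levels, too, overlapped.

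Of the alpha-defensins, Defa24 ranged from 4377 to 5453 CPM in mutant ilea and from 3792 to 4753 CPM in control ilea, with 3 of the 4 mutants above all controls (log2 fold change 0.25, SE 0.12, adjusted p = 0.353). Defa17 ranged from 419 to 607 CPM in mutant ilea and from 390 to 597 CPM in control ilea (log2 fold change 0.06, SE 0.14, adjusted p = 0.902). The sign of Defa17 turned without control NF29 or mutant NFVCT38. Mptx1 was barely counted, with 10, 25, 13 and 11 counts in mutant ilea and 17, 4, 6 and 21 counts in control ilea. At 1.20 ± 0.44 CPM in mutant ilea and 0.60 ± 0.22 CPM in control ilea (SD, n = 4 each) it did not pass (log2 fold change 0.87, SE 0.41, adjusted p = 0.315).

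**Figure D1:**
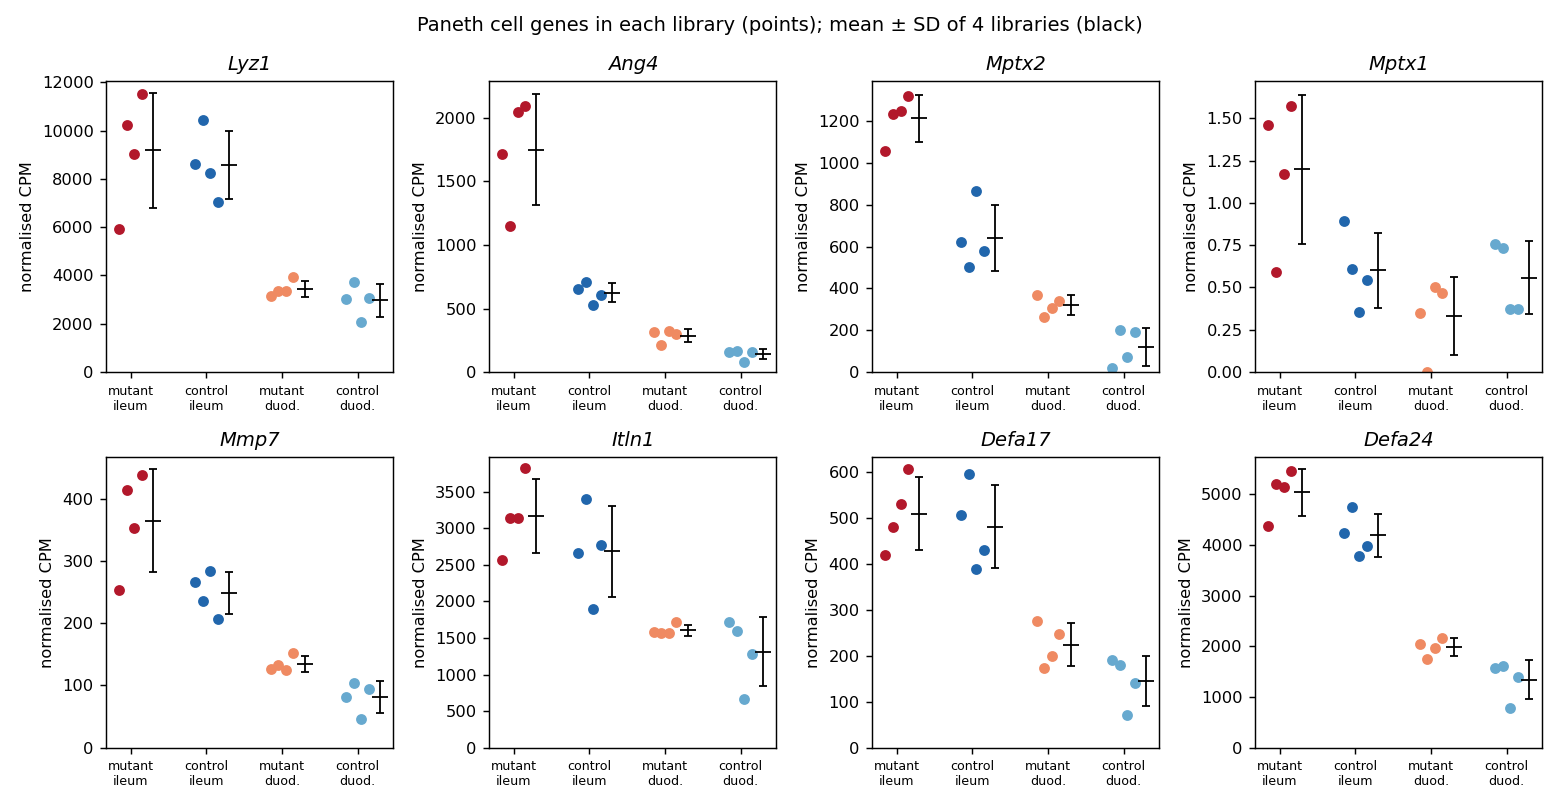
Normalised CPM of each of the 8 genes (y axis, from 0, its own scale per panel) in every library (points) of the 4 groups (x axis), with the mean ± SD of 4 libraries in black. In the ileum, Ang4 and Mptx2 of all mutants lie above those of all controls, while Lyz1 overlaps.

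Other cell types also moved with genotype in the ileum. Smooth muscle markers were called higher for 7 of 10 genes, and their summed level ran from 5629 to 7482 CPM in mutants, against 3497 to 4913 CPM in controls. The mean log2(CPM + 0.5) of these markers, 8.70 to 9.11 in mutants and 7.97 to 8.46 in controls, did not overlap either, so it and genotype cannot be told apart in these libraries. With that mean as a covariate, neither Ang4 (log2 fold change 1.11, adjusted p = 0.502) nor Mptx2 (1.48, adjusted p = 0.127) was called, and the genes called over the whole table numbered 17 in place of 490. Goblet markers were called higher for 4 of 12, with summed levels of 14960 to 21200 CPM in mutant ilea and 10870 to 14460 CPM in control ilea, and no marker was at 0 in a whole group. Tuft markers were called higher for 5 of the 7 tested, with sums of 111 to 170 CPM in mutant ilea and 67.7 to 93.3 CPM in control ilea. Markers of stem cells, macrophages and T and NK cells leaned lower in the mutants. Those of enteric neurons did not (5 of 7 tested above 0, 1 called lower), and those of B and plasma cells were split (3 of 6 above 0). Stem cell markers summed to 905 to 1090 CPM in mutant ilea and 1157 to 1367 CPM in control ilea (1 of 10 called lower), and the macrophage sums given above did not overlap either (1 of 8 called lower). T and NK cell markers were called lower for 2 of 8, with a median log2 fold change of -1.16 and overlapping sums of 33.4 to 151.7 CPM in mutant ilea and 109 to 195 CPM in control ilea. The part of these cell types in the Ang4 and Mptx2 result was not tested. The epithelial markers, with sums of 10360 to 12880 CPM in mutant ilea and 10090 to 12640 CPM in control ilea, overlapped, and both genes were still called when levels were scaled to them.

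In the duodenum none of the 8 genes passed the test, although their levels leaned the same way. Mptx1 failed the filter on low counts, and of the 7 genes tested none was called (edgeR; 3 had an unadjusted p under 0.05, and no filter or DESeq2 each called 1, Ang4). Only 0.394% of the 14703 genes tested in the duodenum were called in either direction, and 1280 had an unadjusted p under 0.05 (edgeR). All 7 fitted log2 fold changes lay above 0, with a median of 0.616 beside -0.000151 over all genes tested. For Ang4, Mptx2, Mmp7 and Defa24, 4 of the 7, every mutant was above every control, which held for 2.77% of all genes tested.

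Ang4 stood at 321, 298, 315 and 210 CPM in the duodena of mutants NFVCT27, NFVCT38, NFVCT153 and NFVCT190, against 169, 82.2, 159 and 158 CPM in those of controls NF17, NF29, NF32 and NF152. As in the ileum, NFVCT190 was the lowest mutant. The log2 fold change of Ang4 was 1.005 (SE 0.23, adjusted p = 0.100). DESeq2 gave 1.01 (adjusted p = 0.0019), and edgeR with no filter 1.02 (adjusted p = 0.0245).

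Mptx2 had the highest fitted fold change in the duodenum and also the widest error. It stood at 308, 341, 371 and 263 CPM in mutant duodena, against 203, 72.2, 193 and 17.4 CPM in control duodena. The controls differed 11.7-fold among themselves, NF152 being the lowest, whereas the mutants lay within 1.41-fold of each other. The log2 fold change of Mptx2 was 1.40 (SE 0.69, adjusted p = 0.661).

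Mmp7 stood at 124.6, 152.4, 126.1 and 133.5 CPM in mutant duodena, against 104, 46.6, 94.6 and 81.1 CPM in control duodena (log2 fold change 0.71, SE 0.21, adjusted p = 0.250). Defa24 ranged from 1755 to 2167 CPM in mutants and from 787 to 1622 CPM in controls (0.55, SE 0.25, adjusted p = 0.567). Defa17 ranged from 173 to 276 CPM in mutants and from 71.4 to 190 CPM in controls (0.62, SE 0.28, adjusted p = 0.595). For both defensins and Mmp7 the lowest library was control NF29.

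Lyz1 ranged from 3133 to 3918 CPM in mutant duodena and from 2067 to 3712 CPM in control duodena (log2 fold change 0.21, SE 0.25, adjusted p = 0.911), and its sign turned when levels were scaled to epithelial markers (-0.03). Itln1 ranged from 1562 to 1722 CPM in mutants and from 660 to 1717 CPM in controls (0.28, SE 0.28, adjusted p = 0.885). Mptx1 had 6, 8, 12 and 0 counts in mutant duodena and 9, 4, 4 and 14 counts in control duodena. It was too low for a comparison at this depth. Control NF29 held the lowest level of 6 of the 7 tested genes, Mptx2 being the exception, and none of the 7 was called without it. Pancreatic acinar markers took 1.93 to 19.9% of counts in mutant duodena and 7.07 to 15.8% in control duodena, and the calls on these genes were the same with that share as a covariate. All 12 goblet markers, too, lay above 0 in the duodenum (median log2 fold change 0.428, 0 called), with sums of 12290 to 16380 CPM in mutants and 10460 to 12480 CPM in controls. The 8 epithelial markers (median 0.2) and the 10 of smooth muscle (median 0.413) also all lay above 0. T and NK cell markers were called lower for 4 of 8, with sums of 51.9 to 136 CPM in mutants and 239 to 320 CPM in controls, and macrophage markers summed to 190 to 334 CPM in mutants and 368 to 388 CPM in controls. Their part in the levels of the 8 genes was not tested.

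**Figure D2:**
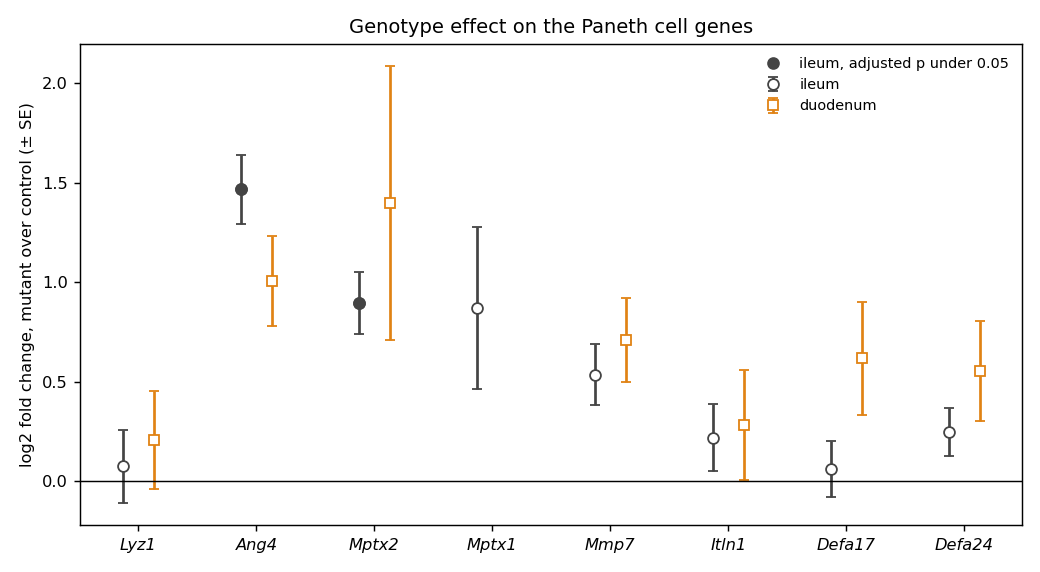
Log2 fold change of mutants over controls (y axis) with its SE for the 8 genes (x axis) in the ileum (circles) and the duodenum (squares); filled symbols have an adjusted p under 0.05. Ang4 and Mptx2 in the ileum are the filled ones, and Mptx1 has no duodenal value because it failed the filter.

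The genotype effect of none of the 8 genes was shown to differ between the ileum and the duodenum. The test of that difference called 0 of 8 (edgeR, and 0 in each alternative run, DESeq2 included; 1 had an unadjusted p under 0.05), and 0.0441% of 15882 genes overall. Of the 15882 genes, 700 had an unadjusted p under 0.05 (edgeR). For Ang4 the effect in the ileum minus that in the duodenum was 0.47 (SE 0.31), and for Mptx2 it was -0.49 (SE 0.72). Mptx1 had the widest difference, 1.60 (SE 0.70, adjusted p = 1), on few counts. Defa17 (-0.54, SE 0.34) and Defa24 (-0.29, SE 0.28) lay below 0, which means a larger fitted effect in the duodenum, and neither passed (adjusted p = 1 for both). Lyz1, Mmp7 and Itln1 lay between -0.16 and -0.05, with signs that turned when single libraries were left out.

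Ratios of counts to Lyz1 of the same library leave out the scaling between libraries and are given as a description, with no test. Of the 6 other abundant genes, Ang4, Mptx2 and Mmp7 had ratios that did not overlap between genotypes in either tissue. The share of all genes whose ratio to Lyz1 separated in this way was not computed, so the separation describes these libraries and is not a result about these genes. By CPM, Mmp7 overlapped between genotypes in the ileum. In the ileum, Ang4 amounted to 0.112 to 0.290 counts per Lyz1 count in mutants, against 0.0642 to 0.0865 in controls. In the duodenum it amounted to 0.0624 to 0.101 in mutants, against 0.0397 to 0.0520 in controls. Both tissues thus showed no overlap for Ang4.

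Mptx2 amounted to 0.115 to 0.179 counts per Lyz1 count in mutant ilea, against 0.0480 to 0.105 in control ilea, and to 0.0780 to 0.118 in mutant duodena, against 0.00572 to 0.0631 in control duodena. Mmp7 amounted to 0.0380 to 0.0428 in mutant ilea, against 0.0225 to 0.0343 in control ilea, and to 0.0373 to 0.0403 in mutant duodena, against 0.0226 to 0.0309 in control duodena. Mutant NFVCT153, whose ileal Mmp7 level lay within the control range, also had the lowest ileal Lyz1 level, and its ratio of 0.0428 was the highest. Ratios of Itln1, Defa17 and Defa24 to Lyz1 overlapped between genotypes in both tissues.

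**Figure D3:**
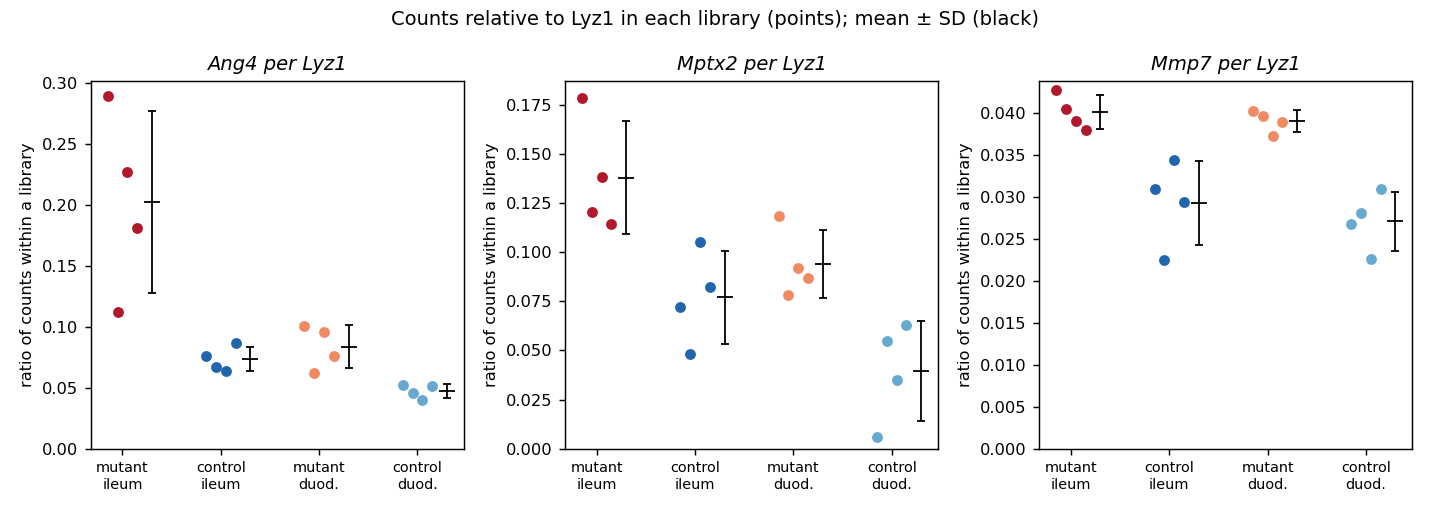
Counts of Ang4, Mptx2 and Mmp7 divided by counts of Lyz1 in the same library (y axis, from 0) for the 4 groups (x axis), with points for libraries and the mean ± SD in black. In both tissues the mutants lie above the controls in all 3 panels; the share of all genes that would do so was not computed.

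The 8 genes together took 2.199 ± 0.325% of all counts in mutant ileum, 1.973 ± 0.214% in control ileum, 0.740 ± 0.116% in mutant duodenum and 0.567 ± 0.163% in control duodenum (SD, n = 4 each). Per kilobase of exon, the order of levels in mutant ileum was Defa24 (12040 CPM per kb), Lyz1 (7268), Itln1 (2777), Ang4 (2469), Mptx2 (1530), Defa17 (1283) and Mmp7 (341), with Mptx1 far below. In control ileum, Defa24, Lyz1 and Itln1 led in the same order, and Defa17 followed with 1213 CPM per kb, ahead of Ang4 (881) and Mptx2 (810). Ang4 was therefore next to Itln1 in mutants and below Defa17 in controls. The place of Defa17 is uncertain, because 92% of its 50-base stretches recur in other genes' transcripts. In control ileum its lowest library (983 CPM per kb) also lay below the highest of Ang4 (995). In control ileum, Ang4 and Mptx2 did not differ beyond their spread, and neither did Itln1 and Ang4 in mutant ileum.

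All 7 genes that could be tested were higher in the ileum than in the duodenum, in mutants as in controls. In mutants, the log2 fold changes of ileum over duodenum were 1.39 for Lyz1, 2.59 for Ang4, 1.90 for Mptx2, 1.42 for Mmp7, 0.96 for Itln1, 1.16 for Defa17 and 1.32 for Defa24, with adjusted p-values of at most 0.00192. Of all 14950 genes tested in mutants, 15.2% were called higher in the ileum and 17.1% lower. In controls, they were 1.54 for Lyz1, 2.14 for Ang4, 2.41 for Mptx2, 1.60 for Mmp7, 1.03 for Itln1, 1.73 for Defa17 and 1.64 for Defa24. Of all 14976 genes tested in controls, 17.1% were called higher in the ileum and 18.7% lower.

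Ang4 had the steepest tissue difference of the 7 in mutants, and Itln1 the shallowest in both genotypes. In controls the call on Mptx2 was the weakest (SE 0.75, adjusted p = 0.0481), with control NF152 at 620 CPM in the ileum and 17.4 CPM in the duodenum. With the animal as a block, which pairs the tissues of each animal, it did not pass (2.85, adjusted p = 0.0569). It also did not pass with no filter (2.40, adjusted p = 0.0879) or without any 1 of 7 of the 8 control libraries (adjusted p = 0.0644 to 0.117). Its adjusted p was lower without the duodenal library of NF152 (2.05, adjusted p = 0.00849). Smooth muscle markers also differed between tissues, being called higher in the ileum for 9 of 10 in mutants and 10 of 10 in controls, and acinar markers were called lower for 15 of 15 in both; their part in the tissue differences was not tested.

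The other alpha-defensins showed a wider range of tissue differences. Of 50 names listed, 27 were in the table. In mutants 11 of 12 tested were called higher in the ileum and 1 lower, with a median log2 fold change of 1.86, and in controls 11 of 12 were called higher and none lower, with a median of 2.76. Medians over all genes tested were -0.0167 in mutants and 0.0141 in controls. Defa21 averaged 898 ± 106 CPM in mutant ileum, 870 ± 129 CPM in control ileum, 15.1 ± 3.4 CPM in mutant duodenum and 7.97 ± 4.16 CPM in control duodenum (SD, n = 4 each). Its log2 fold change of ileum over duodenum was 5.86 in mutants and 6.79 in controls, and that of its near copy Defa22 was 6.08 in mutants and 6.97 in controls; 72.9% of the 50-base stretches of Defa21 recur in Defa22, so that these counts may be split between them.

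AY761184, another cryptdin, departed from this order. It averaged 410 ± 77 CPM in mutant ileum, 493 ± 94 CPM in control ileum, 637 ± 91 CPM in mutant duodenum and 399 ± 142 CPM in control duodenum. It was called lower in the ileum than in the duodenum of mutants (log2 fold change -0.66, adjusted p = 0.0123) and was not called in controls (0.31, adjusted p = 0.370). The difference of the genotype effects of AY761184 between tissues did not pass (-0.94, adjusted p = 0.777). For all 13 other alpha-defensins tested, that difference lay below 0, at -1.77 to -0.0038 with a median of -0.848. None was called by edgeR, DESeq2 or limma-voom. By edgeR, 6 had an unadjusted p under 0.05, as did 700 of all 15882 genes tested. Many of these defensins are near copies, so they are not separate observations.

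**Figure D4:**
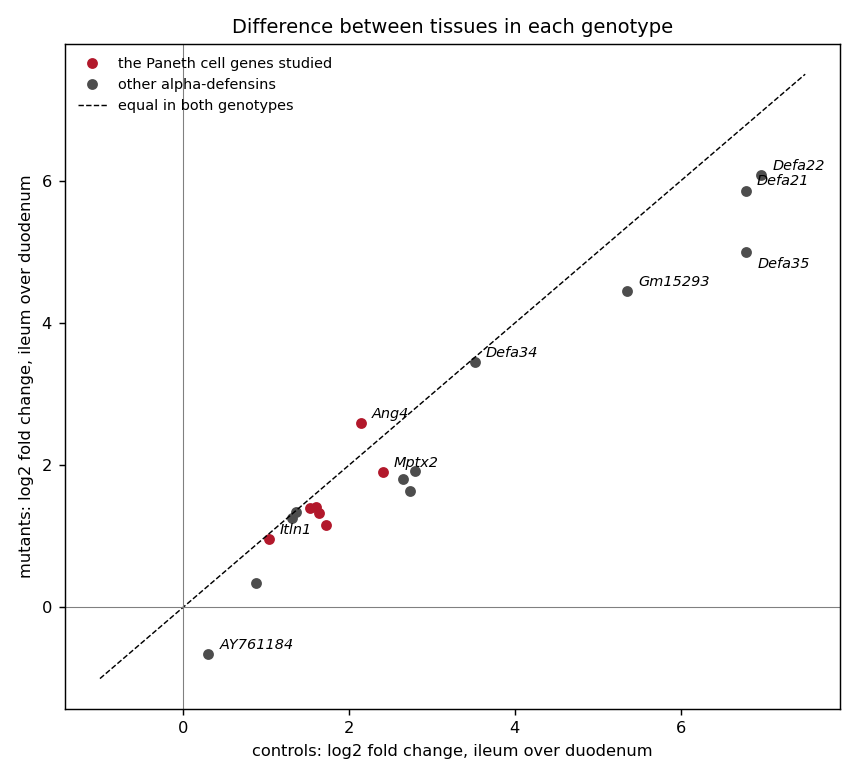
Log2 fold change of ileum over duodenum in mutants (y axis) and in controls (x axis) for the 7 testable genes of the 8 (red) and the other alpha-defensins (grey); the dashed line marks equality. Ang4 lies above the line, and Defa21, Defa22 and Defa35 lie at the upper right, below it.

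Among other Paneth and antimicrobial genes in the ileum, those called were all higher in mutants. Of all 14951 genes tested there, 1.77% were called higher and 1.51% lower. Of 13 other alpha-defensins tested, 3 were called: Defa26 (log2 fold change 0.47, SE 0.11, adjusted p = 0.0272), Defa30 (0.54, adjusted p = 0.0422) and Defa34 (1.02, adjusted p = 0.0452), with a list median of 0.155. Defa30 averaged 1720 ± 191 CPM in mutant ileum and 1166 ± 200 CPM in control ileum, whereas Defa21 and Defa22 differed little (0.03 and 0.08). Each of the 3 calls was lost in 6 of the 8 fits that left out a library, and also when levels were scaled to epithelial markers, with log2 fold changes of 0.48 for Defa26, 0.54 for Defa30 and 1.01 for Defa34. Close copies limit these counts: 84% of the 50-base and 75% of the 100-base stretches of Defa34 recur in other genes' transcripts, as do 52.4% of the 50-base stretches of Defa30 and 40.2% of those of Defa26. With the smooth muscle covariate, none of the calls in these lists was kept, at log2 fold changes such as 0.37 for Defa26, 1.21 for Defa34, 0.80 for Spink4, 0.90 for Ereg and 3.63 for Retnlb.

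Of 15 other Paneth granule and marker genes tested, 4 were called higher, beside 1.77% of all 14951 genes, with a list median of 0.532. Clps, in this list, is also among the acinar markers. Rnase1 and Pnliprp2, in the same list, shared the higher duodenal level of the acinar markers. Rnase1 averaged 2508 CPM in mutant and 3003 CPM in control duodenum, against 65.2 and 102 CPM in the ilea. Pnliprp2 averaged 1067 and 910 CPM, against 456 and 190 CPM. Whether their counts come from Paneth cells was not tested. Spink4, a protease inhibitor of secretory cells, averaged 756 ± 128 CPM in mutant ileum and 447 ± 33 CPM in control ileum (log2 fold change 0.74, adjusted p = 0.00506). Cd24a, a surface protein used to sort Paneth cells, averaged 324 ± 31 CPM in mutant ileum and 206 ± 31 CPM in control ileum (0.63, adjusted p = 0.00919; 0.0618 when scaled to epithelial markers). Pla2g2a, a secreted phospholipase, and Sntb1, a syntrophin, were also called (0.63 and 0.54, adjusted p = 0.0416 and 0.0345), but were lost in 6 and 7 of the 8 fits without a library and when scaled to epithelial markers.

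Of 17 Paneth fate and maintenance genes tested, Atoh1, which starts the secretory fate, and Spdef, which acts in goblet and Paneth maturation, were called higher (0.49 and 0.64, adjusted p = 0.0401 and 0.0296), and were lost in 7 and 6 of the 8 fits without a library; Atoh1 was also lost when scaled to epithelial markers (adjusted p = 0.095). Sox9, which is required for Paneth cells, did not pass (13.8 ± 2.2 CPM in mutant ileum and 10.0 ± 0.9 CPM in control ileum, adjusted p = 0.1499). Of 9 niche ligands tested, Ereg, which codes for epiregulin, was called higher (0.97, adjusted p = 0.00443), at 34.8 ± 7.0 CPM in mutant ileum and 17.5 ± 2.4 CPM in control ileum. Wnt3, the WNT ligand of Paneth cells, stood at 7.73 ± 0.40 CPM in mutant ileum and 6.32 ± 1.18 CPM in control ileum (0.27, adjusted p = 0.497). Of 9 other antimicrobial genes tested, Retnlb, a goblet cell protein, was called, at 74.8 ± 34.0 CPM in mutant ileum and 2.73 ± 1.14 CPM in control ileum (4.75, adjusted p = 0.00763). Reg3b and Reg3g, lectins of the whole epithelium, varied widely and did not pass (0.85 and 0.81, adjusted p = 0.268 and 0.232). Atoh1 and Spink4 are also among the goblet markers used above. The counts called in these 3 lists stand beside 1.77% of all 14951 genes called higher in the ileum.

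In the duodenum none of the 61 tested genes of these 5 lists was called (edgeR; 21 had an unadjusted p under 0.05, DESeq2 called 7 and limma-voom 0). List medians there were 0.891 over 10 other alpha-defensins, 0.222 over 15 granule and marker genes, 0.0618 over 17 fate and maintenance genes, -0.0736 over 10 niche ligands and 0.470 over 9 antimicrobial genes. All 10 alpha-defensins lay above 0, at 0.51 to 1.06, and 9 had an unadjusted p under 0.05. Of all 14703 genes tested there, 1280 had such a p (edgeR) and 0.394% were called. These defensins are not separate observations, as many are near copies. Of the 50-base stretches of Defa3, 92.2% recur in other genes' transcripts, as do 74.9% of those of Defa22. Reg4, a lectin of secretory cells, came nearest to a call, at 43.3 ± 7.5 CPM in mutant duodenum and 113 ± 40 CPM in control duodenum (-1.39, adjusted p = 0.0508). Retnlb leaned higher, at 3.75 ± 1.77 CPM in mutant duodenum and 0.376 ± 0.376 CPM in control duodenum (3.40, adjusted p = 0.0696). Reg3b (2.49, adjusted p = 0.244), Reg3a (1.94, adjusted p = 0.333) and Reg3g (1.79, adjusted p = 0.512) also leaned higher and did not pass. Of the 9 antimicrobial genes tested there, 7 lay above 0, and DESeq2 called 3.

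**Figure D5:**
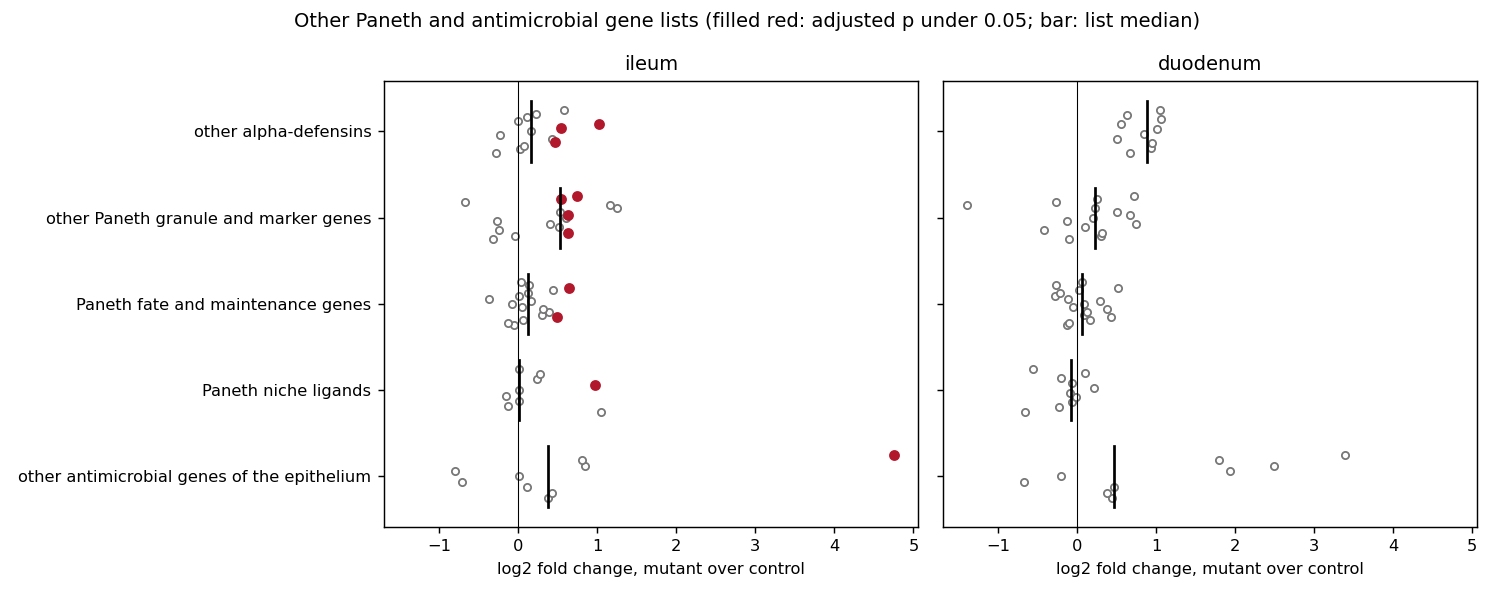
Log2 fold change of mutants over controls (x axis) for the tested genes of 5 other lists (y axis) in the ileum (left) and the duodenum (right); filled red points have an adjusted p under 0.05 and bars are list medians. Called genes appear in the ileum only, all to the right of 0, with Retnlb farthest at 4.75.

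Over the 16 libraries, the genes outside the list whose log2(CPM + 0.5) was most like the mean standardised level of the 7 abundant genes were Defa30 (Pearson r 0.986), Defa26 (0.974), Defa34 (0.972), Defa3 (0.971), Guca2a (0.967), Pla2g2a (0.966), Creb3l4 (0.963) and Klhdc8a (0.962), out of 14202 genes with a mean CPM of at least 1. These libraries share animals and fall into tissue groups, so the values are descriptive. Of the 50-base stretches of Defa3, 88.6% recur in Defa17, and 28.1% of those of Defa30 recur in Defa24. Reads shared between such copies could raise the r of these defensins, and their part was not tested. Guca2a codes for the precursor of guanylin. When each group's mean was subtracted first, the closest were Defa30 (0.924), March3 (0.882), Spink4 (0.875), Gpx1 (0.867), D030056L22Rik (0.867), Mus81 (0.863), Avpr1a (0.851) and Igkv15-103 (0.839). Of the 7 genes themselves, 6 had an r of 0.772 to 0.952 with their shared mean after this step, and Mptx2 had 0.262. That mean includes the gene itself, which raises each of these r values, so they do not compare with those of genes outside the list. Taken over all 16 libraries, Mptx2 followed the shared mean least. Its levels in control duodena spread 11.7-fold, with NF152 lowest at 17.4 CPM, and r without that library was not computed. Whether the same holds in each group was not tested.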

How the data were processed

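Total RNA of ileum and duodenum was sequenced from stranded, ribosomal RNA-depleted libraries with PCR amplification, per the labels' protocols. The authors deposited raw read counts per Ensembl gene, 1 column per library; the submitters' processing notes list STAR 2.5.3a, HTSeq 0.6.1p1, Bowtie2 2.2.8, cutadapt 1.10 and bcl2fastq 2.20.0.422 in no stated order, and the build mm39, and the strand setting of counting is not given in the sources used here. Of 55359 identifiers, 52083, with 98.3% of counts, matched a symbol, and where several shared a symbol the most abundant kept it (68 lost theirs). The 8 genes and all other lists were chosen with earlier results of these data known.

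The counts were filtered by group with filterByExpr, scaled by TMM and tested by a robust quasi-likelihood F test in edgeR 4.0.16 (R 4.3.3), with Benjamini-Hochberg adjustment over all genes tested. Within-tissue tests used 8 libraries, the difference between tissues 16, and the tissue tests the 8 of a genotype. The SE divides the log2 fold change by the root of its F statistic. Alternatives were DESeq2 1.42.0, limma-voom (limma 3.58.1), other scalings, no filter, covariates, the animal as a replicate block and leaving out each library. Exon lengths, shared stretches and coding sequences came from GENCODE M21 on GRCm38, another build than mm39. No coordinates on mm39 are given, and those printed with the upstream windows are on GRCm38.p6. RefSeq had upstream entries for 6 of the 8 genes.

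Libraries held 8213889 to 35076714 counts, and without molecular identifiers PCR copies are not independent molecules. The labels tie an ileal and a duodenal library to each animal. Their deviations from the group means correlated at 0.136 to 0.407 over genes, against at most 0.25 with another animal. For NF32 (0.249) and NFVCT190 (0.189) the r within the animal was below its highest r with another animal (0.25 for both). All pairs of libraries within a group differed by more than sampling noise. The text names all 8 genes in each comparison and up to 4 genes of smallest p per other list; Defa21, Defa22, AY761184, Sox9, Wnt3, Reg3b and Reg3g were added as examples after their values were seen.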

Additional observations from a re-analysis of the deposited data

Results flagged for a closer look

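Ang4 in control duodenum had 1 library far from the others: NF29 stood at 82.17 CPM, against 157.9, 158.6 and 168.9 CPM in the other 3 controls. The same library was the lowest for Lyz1, Mmp7, Itln1, Defa17 and Defa24. Without it, none of the 7 genes tested in the duodenum was called.

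Itln1 in mutant duodenum had 1 library apart on the high side: NFVCT38 stood at 1722 CPM, against 1562, 1565 and 1578 CPM in the other 3 mutants. The gap is narrow in absolute size. Over 32 sets of 4 libraries (8 genes in 4 groups) checked with Dixon's criterion, these were the 2 that passed, and chance flags about 1 in 20.

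Reg4 was the gene of the 5 other lists whose genotype effect edgeR called as differing between the tissues. It averaged 381 ± 101 CPM in mutant ileum and 168 ± 51 CPM in control ileum, and 43.3 ± 7.5 CPM in mutant duodenum and 113 ± 40 CPM in control duodenum (SD, n = 4 each). The effect in the ileum minus that in the duodenum was 2.56 on the log2 scale (edgeR, adjusted p = 0.0262). It did not pass with no filter on low counts (adjusted p = 0.0969) or in 9 of 16 fits without a library (adjusted p up to 0.105). DESeq2 called Reg4 and also Reg3a, an antimicrobial lectin (-2.74, adjusted p = 0.0278).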

How the results depend on the processing

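Of 604 values of single genes among the 8 under the alternatives, 575 kept their direction and their side of the threshold. The number of the 8 genes called in the duodenum went to 1 with no filter and to 1 with DESeq2, Ang4 in both, and to 0 in the other 14 alternatives. In the ileum it went to 0 with the smooth muscle covariate, and to 2 or 3 in all others. Directions turned for Lyz1 in the duodenum scaled to epithelial markers (-0.02954), a scaling that moved the median of all genes there to -0.229. With the smooth muscle covariate they turned for Itln1 (-0.05835) and Defa17 (-0.06848) in the ileum. Leaving out each library gave -0.05632 to 0.229 for Lyz1 and -0.03546 to 0.172 for Defa17 in the ileum. For the difference between tissues it gave -0.2613 to 0.049 for Lyz1, -0.3177 to 0.01248 for Mmp7 and -0.1952 to 0.1503 for Itln1. The causes were not tested.

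Over all genes, the 58 called in the duodenum became 169 with no filter, 310 with DESeq2, 168 scaled to epithelial markers and 31 when the mutant and the control library richest in acinar counts were left out; 27 to 61 were called without 1 library. The 490 called in the ileum became 1096, 875 and 17 with no filter, DESeq2 and the smooth muscle covariate, and 272 to 472 without 1 library. With the animal as a replicate block, the 7 called for the difference between tissues became 16, none of the 8 genes among them, and the call on Mptx2 in controls was lost (adjusted p = 0.0569); the block changed no other call on the 8 genes. With 4 libraries a group, a gene that did not pass is not shown to be unchanged, and 26 and 31 counts of Mptx1 in all mutant and control duodena limit any statement on it.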
